A study of Homo sapiens with 18 samples.

Results

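The genes described here are 3 of the Janus kinases, JAK1, JAK2 and TYK2, and 6 of the signal transducers and activators of transcription, STAT2, STAT3, STAT4, STAT5A, STAT5B and STAT6. They were taken by symbol from a table of 63677 Ensembl genes, and all 9 were among the 16678 genes with enough reads to be tested. The RNA came from THP-1, a human monocytic leukaemia line, in 18 libraries that form 6 groups of 3 replicates. Treatments were done in triplicate, and whether the replicates were grown separately is not given in the sources used here. Cells of the KD groups received 25 nM of an siRNA against TRAFD1, a zinc finger protein that restrains innate immune signalling. Cells of the SCR groups received 25 nM of a scrambled siRNA with no target. Cells of the WT groups received no siRNA, and the descriptions differ on whether they were exposed to the transfection mix. At 72 h after transfection each treatment was kept in medium or given 10 ng/ml lipopolysaccharide (LPS) from Escherichia coli for 4 h. No genetic change separates the groups, and all of them stem from the same line, so the spread is that between replicates of 1 line.

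Receptors for interferons and for most interleukins have no kinase of their own and rely on JAK proteins bound to their tails. Ligand binding brings the kinases together, and they phosphorylate the receptor and then the STAT proteins that dock on it. Phosphorylated STAT proteins pair and move to the nucleus, where they bind DNA and change transcription. In monocytes, LPS acts first through Toll-like receptor 4 and NF-kB, and the cytokines and interferons made in response then signal through JAK and STAT proteins. The deposited counts are of mRNA, so they carry nothing on phosphorylation. Because RNA of a whole culture was sequenced, fewer cells of a type and less RNA per cell cannot be told apart.

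STAT5A, STAT5B and STAT3 lie next to each other on chromosome 17. In GRCh37 with the GENCODE annotation, STAT5B (ENSG00000173757, minus strand) spans 40351194 to 40440651. STAT5A (ENSG00000126561, plus strand) spans 40439565 to 40463961, and STAT3 (ENSG00000168610, minus strand) spans 40465342 to 40540558. The gene models of STAT5A and STAT5B overlap by 1087 bases at their starts, and 1380 bases separate the ends of STAT5A and STAT3. Whether reads were counted by strand is not given in the sources used here. The libraries read the 3′ end of each transcript, and of 980 different words of 31 bases in the last 500 bases of STAT5A transcripts, 13 occurred in a STAT5B transcript. None of the 484 words from the ends of STAT5B transcripts occurred in STAT5A, although the genes shared 690 words over their whole transcripts. The other members are single loci elsewhere in GRCh37. JAK1 (ENSG00000162434) lies on chromosome 1 at 65298906 to 65533437, STAT4 (ENSG00000138378) on chromosome 2 at 191894302 to 192016322 and JAK2 (ENSG00000096968) on chromosome 9 at 4984390 to 5129948. STAT2 (ENSG00000170581) and STAT6 (ENSG00000166888) lie on chromosome 12 at 56735381 to 56753987 and at 57489191 to 57525922, and TYK2 (ENSG00000105397) lies on chromosome 19 at 10461209 to 10491284. STAT5A and JAK2 lie on the plus strand and the other 7 genes on the minus strand.

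Start-site windows are shown for STAT5A and STAT5B because STAT5A was the member with the lowest adjusted p after LPS in all 3 conditions while its neighbour STAT5B was not called in any. They are RefSeq sequences of the build GRCh38.p14, 5′ to 3′ on the strand of the gene, from 250 bases before to 50 bases after an annotated start. All 9 genes were matched, with 17 windows in all. STAT5A has 3 windows, of which numbers 1 and 3 are printed, and STAT5B has 1. Capitals mark a TTCNNNNGAA match in STAT5A window 1 and a match to the NF-kB consensus in STAT5A window 3.
STAT5A, window 1 (chr17:42287189-42287488, plus strand): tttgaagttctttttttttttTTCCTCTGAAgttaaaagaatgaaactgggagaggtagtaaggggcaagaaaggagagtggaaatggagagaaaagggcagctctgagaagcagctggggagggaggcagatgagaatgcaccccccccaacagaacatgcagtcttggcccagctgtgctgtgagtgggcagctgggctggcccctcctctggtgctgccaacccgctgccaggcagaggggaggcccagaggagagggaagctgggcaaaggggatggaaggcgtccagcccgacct
STAT5A, window 3 (chr17:42288248-42288547, plus strand): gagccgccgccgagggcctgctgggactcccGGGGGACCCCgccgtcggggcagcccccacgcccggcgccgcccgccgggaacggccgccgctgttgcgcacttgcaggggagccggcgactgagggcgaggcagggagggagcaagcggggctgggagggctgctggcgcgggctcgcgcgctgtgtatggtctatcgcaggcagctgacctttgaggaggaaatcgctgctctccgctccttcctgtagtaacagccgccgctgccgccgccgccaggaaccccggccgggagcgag
STAT5B (chr17:42276342-42276641, minus strand): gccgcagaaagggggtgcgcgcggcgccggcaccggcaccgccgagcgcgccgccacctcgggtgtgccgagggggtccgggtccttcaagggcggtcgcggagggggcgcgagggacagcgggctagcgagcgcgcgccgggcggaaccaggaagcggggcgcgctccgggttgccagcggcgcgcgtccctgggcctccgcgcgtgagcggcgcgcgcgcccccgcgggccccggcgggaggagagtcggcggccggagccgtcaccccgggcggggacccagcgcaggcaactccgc

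The NF-kB match in STAT5A window 3 begins at position -219 relative to the annotated start. It was the sole match to that consensus among the 17 windows, and 5.91% of 35116 RefSeq windows hold one on either strand. TTCNNNNGAA, the wider spacing that STAT6 prefers, reads the same on both strands. It occurred in STAT5A window 1 at position -229 and is held by 6.44% of all windows. Neither TTCNNNGAA, the usual STAT-dimer motif, nor GAAANNGAAA, a motif of interferon-stimulated promoters, occurred in any of the 17 windows. They are held by 7.66% and 3.57% of all windows. The motifs were searched on both strands, do not contain one another, and are descriptions of letters, not of binding.

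Each library held 8206023 to 22344279 counted reads, so that 3 reads amounted to 0.133 to 0.378 CPM, counts per 1000000 counted reads. The levels given below are CPM scaled by the TMM method, which corrects for a few very abundant transcripts. All 11 monocyte and macrophage markers examined averaged over 1 CPM, and their summed level was 553 to 767 CPM. None of 5 T cell markers did, with sums of 0 to 0.616 CPM. The B-cell factor PAX5 (38.4 CPM) and NCAM1 (10 CPM) were present, while the defining B-cell genes MS4A1 (0.0375 CPM) and CD79A (0.0584 CPM) were close to 0, as were KLRD1 (0.191 CPM) and the epithelial genes EPCAM and CDH1 (0.0357 and 0.104 CPM). TRAFD1 was at 11.6, 5.37 and 9.02 CPM in KD and at 26.8, 20.1 and 24.3 CPM in SCR without LPS, which was lower by edgeR's quasi-likelihood test (log2 fold change -1.45, adjusted p = 0.0277). With LPS it was at 15.8, 14 and 13.8 CPM in KD and at 21.9, 27.5 and 18.7 CPM in SCR. Those groups did not overlap either, but the difference was not called (log2 fold change -0.65, adjusted p = 0.262). In KD cells TRAFD1 itself rose after LPS by 0.73 on the log2 scale (adjusted p = 0.0456).

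Unstimulated KD replicate 2 differed from the other 2 libraries of its group in several of these genes. Its STAT3 level was 96.6 CPM against 43.7 and 38.8 CPM, its JAK2 level 67.4 CPM against 52 and 48.1 CPM, and its JAK1 level 29.8 CPM against 45.6 and 40.3 CPM. It also had the lowest TRAFD1 level of all libraries and, at 4.86%, the highest share of mitochondrial reads among the unstimulated ones. The 3 unstimulated KD libraries correlated less with their own group mean (0.9648 to 0.9743) than the other 15 did. For STAT3, JAK1 and JAK2, the KD response to LPS and KD against SCR without LPS are given with and without this library. The part of the mitochondrial share in these results was not tested.

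Before LPS, the members differed widely in level. STAT2, the STAT that joins IRF9 in the interferon-induced complex ISGF3, averaged 126 ± 6.44 CPM (SD, n = 3) in WT, and STAT6, the mediator of interleukin-4 and interleukin-13 signals, averaged 102 ± 6.43 CPM. STAT3, used by the interleukin-6 and interleukin-10 families, stood at 67.5 ± 16.8 CPM and JAK2, the kinase of the GM-CSF, interleukin-3 and interferon-gamma receptors, at 62.2 CPM. JAK1 and TYK2, which serve interferon and interleukin receptors, lay at 46.6 ± 2.86 and 46.3 CPM. STAT5A was at 14.9 ± 2.7 CPM and STAT5B, its close paralog, at 7.08 ± 0.954 CPM. STAT4, which carries interleukin-12 signals in lymphocytes, was at 1.24 ± 0.485 CPM, from 8 to 38 reads a library. The libraries read each transcript from its 3′ end, so the CPM of these genes were not divided by length.

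**Figure D1:**
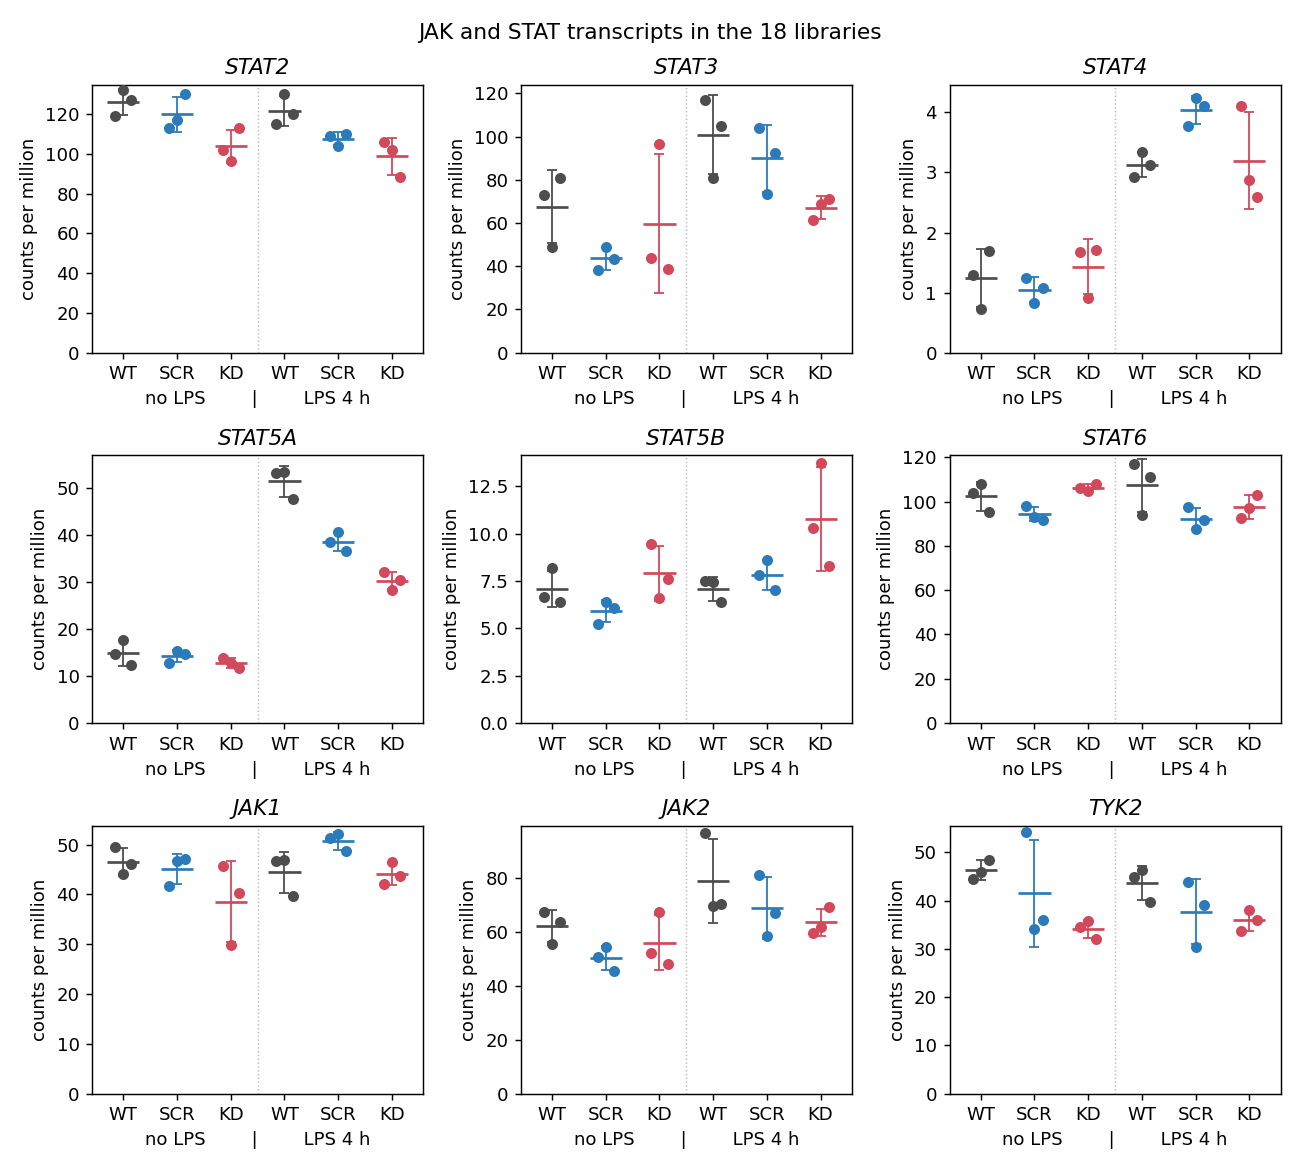
Level of each of the 9 genes in CPM (y axis, from 0) in every library of the 6 groups (x axis), with 1 point per library, a horizontal line for the mean and a bar for 1 SD. STAT5A sits at 11.7 to 17.7 CPM in all 9 libraries without LPS and at 28.4 to 53.5 CPM in all 9 with LPS, and unstimulated KD replicate 2 stands out for STAT3 at 96.6 CPM.

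In WT cells, the response to LPS touched STAT5A and STAT4. These were 2 of the 9 genes and both rose, against a background of 14.3% of all tested genes called in either direction (7.01% higher and 7.26% lower). STAT5A went from 14.8, 17.7 and 12.3 CPM to 53.3, 53.5 and 47.6 CPM. Its lowest stimulated library was far above its highest unstimulated one, and the change was 3.47-fold (log2 1.80, SE 0.13, adjusted p = 2.1e-09 by edgeR's quasi-likelihood test with Benjamini-Hochberg adjustment, as for all adjusted p here). STAT4 went from 1.3, 0.726 and 1.69 CPM to 2.92, 3.34 and 3.13 CPM, again without overlap, by 2.44-fold (log2 1.29, SE 0.34, adjusted p = 0.0135). That call was lost without WT replicate 2 (log2 1.05, adjusted p = 0.06).

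STAT3 and JAK2 were also higher in the stimulated WT libraries, but neither passed the test. STAT3 was at 72.9, 48.7 and 81 CPM before and at 117, 80.8 and 105 CPM after LPS. The highest unstimulated library was just above the lowest stimulated one, and the log2 fold change was 0.57 (95% interval 0.06 to 1.08, adjusted p = 0.137). With only the 2 WT groups in the fit it was called (log2 0.59, adjusted p = 0.0349), as it was with no filter on low counts (log2 0.56, adjusted p = 3.9e-04). JAK2 was at 67.3, 55.6 and 63.6 CPM before and at 96.6, 69.4 and 70.1 CPM after, with no overlap and a log2 fold change of 0.34 (95% interval 0.03 to 0.65, adjusted p = 0.147). The mitochondrial share was 3.19 to 3.37% before and 3.82 to 4.46% after LPS, and WT replicate 4, with the highest share, had the highest STAT3 and JAK2 levels. The part of this share was not tested. STAT2, STAT5B, STAT6, JAK1 and TYK2 had log2 fold changes of -0.05, 0.01, 0.07, -0.07 and -0.08, and the replicates of the 2 groups overlapped for each of them.

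In SCR cells 4 of the 9 genes were called after LPS, all higher, where 17.2% of all tested genes were called (8.64% higher and 8.56% lower). Those 2869 calls became 1875 and 1789 without SCR replicates 1 and 4. STAT5A rose from 12.8, 15.3 and 14.8 CPM to 38.6, 40.7 and 36.6 CPM, a 2.71-fold change (log2 1.44, SE 0.13, adjusted p = 1.1e-07). STAT4 rose from 1.24, 0.822 and 1.08 CPM to 3.78, 4.24 and 4.11 CPM, which is 3.77-fold (log2 1.92, SE 0.35, adjusted p = 6.3e-04). These were 9 to 28 reads before and 30 to 61 reads after, and the replicates stood clearly apart. STAT3 rose from 38.4, 48.9 and 43.5 CPM to 104, 73.5 and 92.3 CPM, or 2.07-fold (log2 1.05, SE 0.25, adjusted p = 0.00587). JAK2 rose from 50.7, 54.4 and 45.4 CPM to 81, 58.3 and 66.8 CPM, or 1.37-fold (log2 0.45, SE 0.15, adjusted p = 0.0436).

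The JAK2 call had little margin. Leaving out 1 of the 6 libraries ended it in 5 of the 6 cases, with log2 fold changes from 0.32 to 0.51 in those 5, and a correction for GC content ended it too (log2 0.34, adjusted p = 0.143). The 3 stimulated SCR libraries had 3.72 to 5.2% mitochondrial reads against 3.28 to 3.47% in the unstimulated ones, and the library with the highest share also had the highest STAT3 and JAK2 levels of its group. The part of this share in the 2 changes was not tested. The other 5 genes were not called in SCR: STAT5B had a log2 fold change of 0.41 (95% interval -0.02 to 0.85), JAK1 of 0.17, STAT6 of -0.03, TYK2 of -0.15 and STAT2 of -0.16. TYK2 was uneven in the unstimulated SCR group, with 54.3, 34.2 and 36 CPM.

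In KD cells 2 of the 9 genes were called after LPS, where 11.5% of all tested genes were (6.41% higher and 5.05% lower). Those 1912 calls became 3150, 1146 and 1098 without KD replicates 1, 3 and 5, and 847 with the groups alone. STAT5A rose from 13.8, 12.8 and 11.7 CPM to 32.1, 28.4 and 30.4 CPM, a 2.37-fold change (log2 1.24, SE 0.14, adjusted p = 1.4e-06). STAT4 rose from 1.68, 0.909 and 1.71 CPM to 4.11, 2.88 and 2.59 CPM, or 2.2-fold (log2 1.14, SE 0.34, adjusted p = 0.0349). The STAT4 groups did not overlap, but the call was lost without KD replicates 2, 3, 4 or 5, with log2 fold changes between 0.91 and 1.27.

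STAT3 was not called in KD. It was at 43.7, 96.6 and 38.8 CPM before LPS and at 61.3, 69 and 71.2 CPM after (log2 fold change 0.17, 95% interval -0.34 to 0.69, adjusted p = 0.707). All 3 stimulated libraries lay above 2 of the unstimulated ones and below the other. Without KD replicate 2 the log2 fold change was 0.71 and was called (adjusted p = 0.0212). JAK1 and JAK2 had 0.04 and 0.35 without that library, and neither was called. STAT5B had a log2 fold change of 0.45 (95% interval 0.03 to 0.87, adjusted p = 0.159), JAK1 of 0.19, JAK2 of 0.19, TYK2 of 0.07, STAT2 of -0.08 and STAT6 of -0.12, and none of these passed the test.

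**Figure D2:**
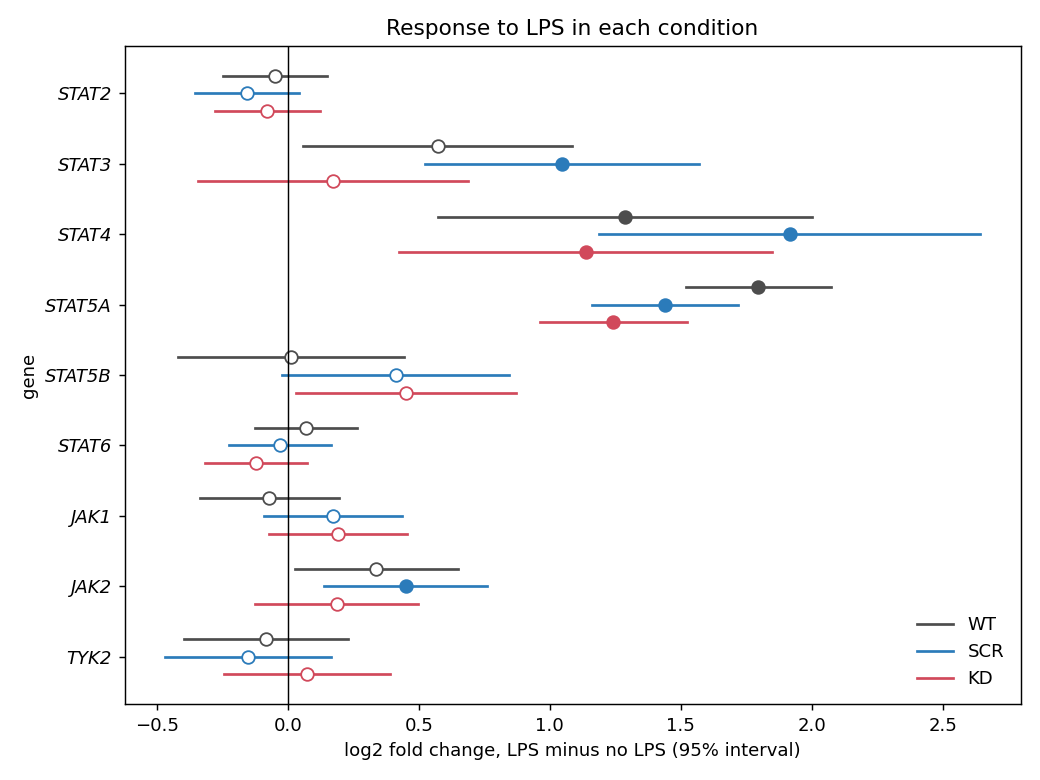
Log2 fold change of each gene after 4 h of LPS (x axis) in WT, SCR and KD cells (grey, blue and red), with 95% intervals as lines and filled circles for adjusted p under 0.05. STAT5A and STAT4 are filled in all 3 conditions, STAT3 and JAK2 in SCR alone, and the other 5 genes in none.

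STAT5A kept the same order in the stimulated libraries throughout: all WT values were above all SCR values, and all SCR values were above all KD values. The stimulated WT mean was 51.5 ± 3.35 CPM, the SCR mean 38.6 ± 2.05 CPM and the KD mean 30.3 ± 1.85 CPM (SD, n = 3 each). The neighbours in this order were not called different. SCR was lower than WT by a log2 fold change of -0.41 (95% interval -0.68 to -0.15, adjusted p = 0.193) and KD lower than SCR by -0.35 (95% interval -0.62 to -0.08, adjusted p = 0.286). The ends of the order were: KD was lower than WT with a log2 fold change of -0.77 (SE 0.13, adjusted p = 0.00172), and leaving out any 1 of the 6 libraries left it called. Without LPS the 3 means were 14.9, 14.3 and 12.8 CPM, and the groups overlapped.

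Whether the STAT5A response itself differed between conditions was tested as an interaction, which compares the LPS fold change of 1 condition with that of another. The response was smaller in KD than in WT by 0.55 on the log2 scale (-0.55, 95% interval -0.94 to -0.16, unadjusted p = 0.00758, adjusted p = 0.186 with edgeR), a comparison that was added after the data had been seen. It differed by -0.36 between SCR and WT (adjusted p = 0.529) and by -0.20 between KD and SCR (95% interval -0.59 to 0.19, adjusted p = 0.824). None of these 3 values was called.

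STAT5B was not called in any comparison, and its ratio to STAT5A shifted with LPS. After LPS its 3 WT libraries held 7.49, 7.44 and 6.37 CPM, the SCR libraries 7.82, 8.62 and 7.01 CPM, and the KD libraries 10.3, 13.7 and 8.31 CPM. In WT libraries STAT5A was 1.92 to 2.21 times as high as STAT5B before LPS and 7.12 to 7.48 times as high after. The ratio went from 2.42 ± 0.0181 to 4.96 ± 0.249 in SCR and from 1.64 ± 0.258 to 2.95 ± 0.81 in KD (SD, n = 3). The ratios of the 3 stimulated groups did not overlap. They are given as a description, without a test.

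**Figure D3:**
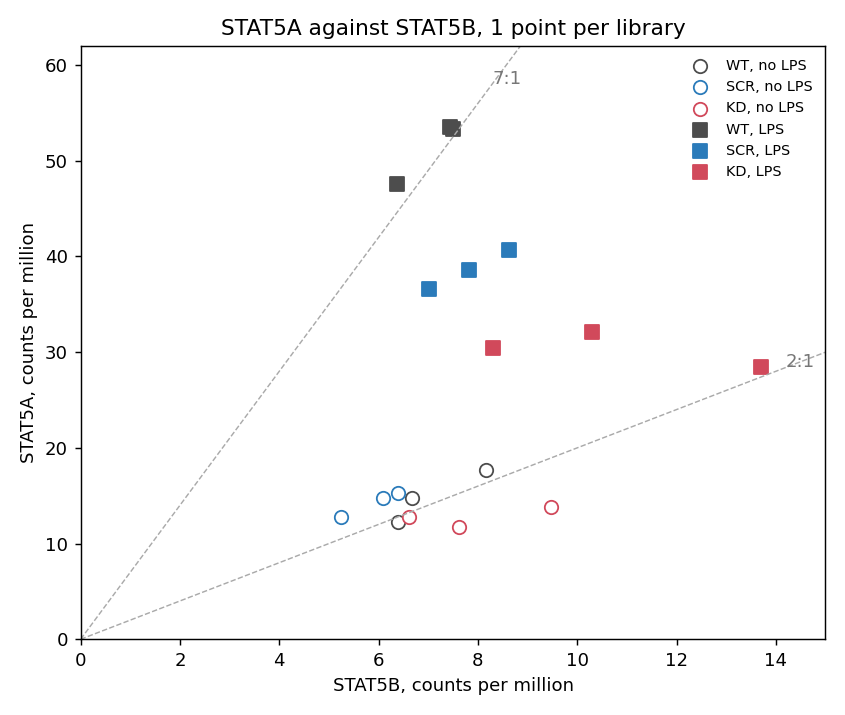
STAT5A (y axis) against STAT5B (x axis), both in CPM, with 1 point per library, open circles without LPS and filled squares with LPS, and WT, SCR and KD in grey, blue and red. Dashed lines mark STAT5A at 2 and at 7 times STAT5B, and the stimulated WT libraries lie near the upper line at ratios of 7.12 to 7.48.

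The effect of the TRAFD1 siRNA is addressed by comparing KD with SCR, since both carry an siRNA. Without LPS none of the 9 genes was called by edgeR, where 0.066% of all tested genes were (11 of 16678, and 1 to 52 when 1 library was left out). STAT2 alone had an unadjusted p under 0.05, against 12.6% of all genes, and DESeq2 called 0 of the 9. It was at 102, 96.6 and 113 CPM in KD and at 113, 117 and 130 CPM in SCR, so that the groups met at their edges (log2 fold change -0.21, 95% interval -0.41 to -0.01, adjusted p = 0.376). STAT3 was higher by 0.45 (95% interval -0.07 to 0.97, adjusted p = 0.469), a value that rested on KD replicate 2: without it the log2 fold change was -0.07. STAT5B had 0.43 (95% interval 0 to 0.86), STAT4 0.43, STAT6 0.17 and JAK2 0.15. TYK2 had -0.29, JAK1 -0.22 and STAT5A -0.15 (95% interval -0.44 to 0.13). Without KD replicate 2, JAK2 had -0.001 and JAK1 -0.07. The TYK2 value rested on SCR replicate 1: without that library it was -0.04 (adjusted p = 0.961). STAT5B and STAT6 did not overlap between the groups. The share of all tested genes without overlap was not counted for this or any other comparison. Overlap is also not stated for every gene.

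With LPS, again none of the 9 genes differed between KD and SCR by edgeR, which called 0% of all genes (0 of 16678, although 1963 had an unadjusted p below 0.05). By DESeq2, 142 genes passed and none of the 6 members with an adjusted p did. DESeq2 gave no adjusted p to STAT4, STAT5A and STAT5B here. STAT5A (unadjusted p = 0.0123) and STAT5B (unadjusted p = 0.0315) had the lowest values. STAT5B went the other way from STAT5A, with 10.8 ± 2.75 CPM in KD against 7.82 ± 0.802 CPM in SCR (log2 fold change 0.47, 95% interval 0.05 to 0.89, adjusted p = 0.372). Without KD replicate 5 the STAT5B value was 0.25 (adjusted p = 0.746). STAT3 was lower in all 3 KD libraries than in any SCR library, at a log2 fold change of -0.42 (95% interval -0.94 to 0.09, adjusted p = 0.516), and JAK1 did not overlap either, at -0.20 (95% interval -0.47 to 0.06). STAT4 had -0.35, STAT2 -0.13, JAK2 -0.11, TYK2 -0.06 and STAT6 0.08. The intervals of JAK2, TYK2 and STAT6 reached from -0.42 to 0.20, from -0.38 to 0.26 and from -0.12 to 0.27.

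The interaction between siRNA and LPS was not called for any member between KD and SCR, where edgeR called 0% of all genes (0 of 16678, although 1274 had an unadjusted p below 0.05). By DESeq2, 3 genes passed but 0 of the 9. STAT3 had the largest value, with a response lower in KD by a log2 difference of -0.87 (SE 0.35, unadjusted p = 0.0216, adjusted p = 0.612). Without KD replicate 2 it was -0.35 (adjusted p = 0.901). It was called under 1 alternative, with no filter on low counts (-0.89, adjusted p = 0.00141).

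SCR cells received an siRNA and WT cells did not, and the groups may also differ in exposure to the transfection mix. No member was called between them without LPS, where edgeR called 3.23% of all genes, or with LPS, where it called 0.114%. Leaving out WT replicates 1 or 3 or SCR replicates 1, 2 or 3 moved the former from 538 calls to between 193 and 347, and leaving out 1 library moved the latter from 19 to between 0 and 14. Unadjusted p values were under 0.05 for 2 of the 9 genes in each case, against 17.2% and 13.7% of all genes. DESeq2 called 0 members, but gave no adjusted p to STAT4 and STAT5B with LPS. Without LPS all 9 fold changes were below 0, with STAT3 lowest at -0.64 (95% interval -1.16 to -0.12, adjusted p = 0.172) and JAK2 at -0.31 (95% interval -0.62 to 0, adjusted p = 0.29), against a median of 0.006 over all genes. STAT3 was called with only these 2 groups in the fit (adjusted p = 0.0458) and with no filter on low counts (adjusted p = 1.4e-04). JAK2 did not overlap, at 45.4 to 54.4 CPM in SCR and 55.6 to 67.3 CPM in WT. With LPS, STAT6 followed STAT5A with -0.22 (95% interval -0.41 to -0.02, adjusted p = 0.316). The interaction of SCR and WT with LPS, which called 0.234% of all genes, held no member by edgeR or by DESeq2, and none of the 9 had an unadjusted p under 0.05. For STAT3 it was 0.47 (adjusted p = 0.668).

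KD cells received the siRNA against TRAFD1 and WT cells received none, and the groups may also differ in exposure to the transfection mix. This comparison shares its KD and WT libraries with those above. TRAFD1 was lower in KD than in WT without LPS (log2 fold change -1.23, adjusted p = 0.00156). With LPS the TRAFD1 levels overlapped and were not called different, at 14.5 against 17 CPM (log2 fold change -0.23, adjusted p = 0.563). Without LPS the comparison called 11.7% of all genes and none of the 9 by edgeR or DESeq2. Of the 9, 3 had an unadjusted p under 0.05, against 25.8% of all genes. Its 1951 calls became 1246 and 962 without WT replicates 1 and 3, and 280 with the groups alone. STAT2 was at 96.6 to 113 CPM in KD and 119 to 132 CPM in WT (log2 fold change -0.28, adjusted p = 0.0656), and TYK2 was at 34.6, 35.7 and 32 CPM in KD and 44.4, 46 and 48.5 CPM in WT (log2 fold change -0.44, adjusted p = 0.0637). Neither gene overlapped between the groups, nor did the mitochondrial share, at 3.87 to 4.86% in KD and 3.19 to 3.37% in WT, whose part was not tested. Without KD replicate 2, STAT3 was called lower (-0.72, adjusted p = 0.0188), where all libraries gave -0.19 (adjusted p = 0.689).

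With LPS, KD against WT called 10.8% of all genes and 2 of the 9, STAT5A as given above and STAT2, both lower. Its 1808 calls became 1098 and 376 without WT replicates 4 and 6, 1117, 596 and 1103 without KD replicates 4, 5 and 6, and 3235 with the groups alone. STAT2 was at 106, 102 and 88.5 CPM in KD and at 115, 130 and 120 CPM in WT (log2 fold change -0.30, SE 0.10, adjusted p = 0.0459). The call was lost whichever of the 6 libraries was left out, with log2 fold changes from -0.36 to -0.23. STAT3 had -0.58 (adjusted p = 0.133) and STAT5B 0.61 (95% interval 0.18 to 1.03, adjusted p = 0.0615), each without overlap. STAT3 was called with only the 2 groups in the fit (adjusted p = 0.00102). STAT5B was called in 1 of 6 leave-one-out fits, the one without KD replicate 6 (0.77, adjusted p = 0.0377). Its values in the 6 fits ranged from 0.39 to 0.77, with adjusted p up to 0.319. The interaction of KD and WT with LPS, also added after the data had been seen, called 0.36% of all genes and none of the 9 by edgeR. DESeq2 called none of the 7 with an adjusted p, which leaves out STAT4 and STAT5B. Of the 9, only STAT5A had an unadjusted p under 0.05 there, and STAT3 had -0.40 (adjusted p = 0.624).

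**Figure D4:**
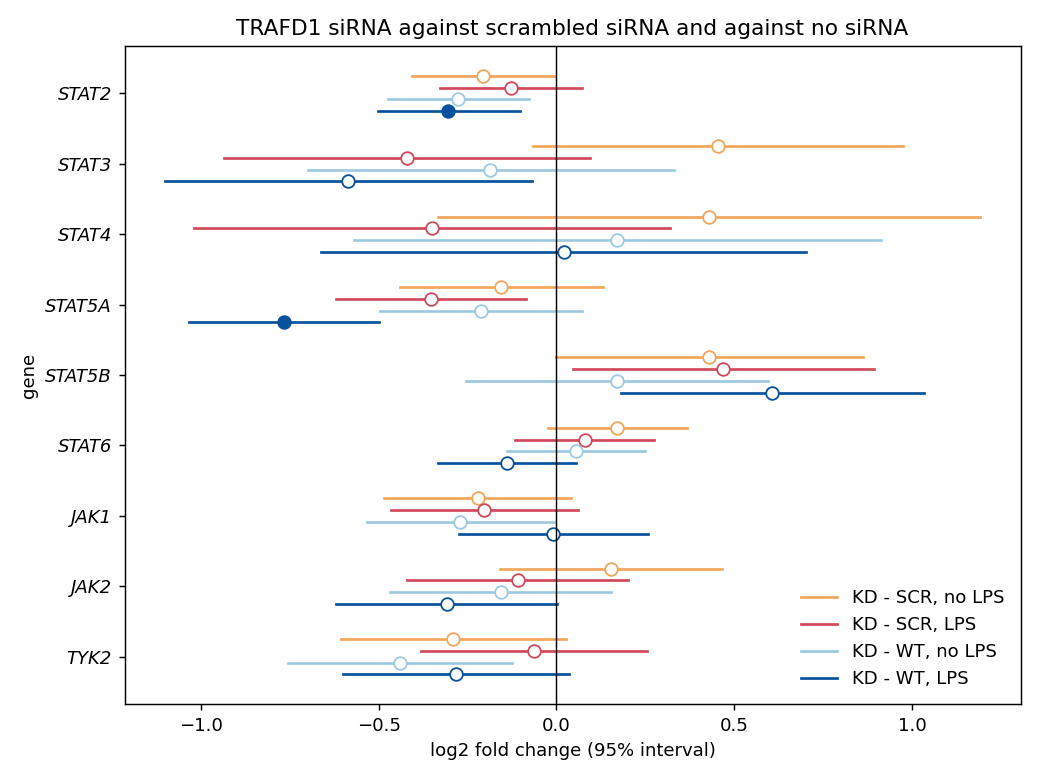
Log2 fold change (x axis) of each gene between KD and SCR cells and between KD and WT cells, without and with LPS, with 95% intervals as lines and filled circles for adjusted p under 0.05. The filled circles are STAT5A (-0.77) and STAT2 (-0.30) in KD against WT with LPS, and the comparisons share their KD libraries.

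Among the 18 libraries, STAT3 and JAK2 varied together (Pearson r of log2 CPM 0.912) and so did STAT4 and STAT5A (r = 0.82). These correlations share the 6 groups, libraries and depth, and are descriptions. The tested genes most like STAT5A were MCOLN2, DRAM1 and SLC11A2, with r of 0.984, 0.982 and 0.981 over the 18 libraries. For STAT3 they were NUCKS1, LRRFIP1 and the pseudogene SEC63P1 (0.962, 0.959 and 0.938). For JAK2 they were the mitochondrial gene MT-ND4L, MED24 and LRRFIP1 (0.944, 0.932 and 0.925). STAT2 came closest to GUCD1, PIK3CD and CALM3 (0.913, 0.886 and 0.864), and JAK1 to PABPC1P3, EIF4A3 and PABPC1P4 (0.897, 0.872 and 0.866). STAT6 and TYK2 had weaker neighbours, GSTM3, CD37 and TYROBP for the former (0.84, 0.745 and 0.73) and SURF1, UBB and MORF4L1 for the latter (0.826, 0.772 and 0.763). The pseudogenes named here resemble other genes in sequence, so their counts are uncertain.

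Around the 9 genes, the rest of the pathway was read from lists of receptors, ligands, inhibitors, adaptors and target genes. Of 39 receptor chains, 28 were tested, and after LPS 6, 7 and 7 rose and 4, 1 and 2 fell in WT, SCR and KD. The median log2 fold changes of the list were 0.12, 0.17 and 0.17, against -0.03, -0.03 and 0 for all genes. Over all tested genes 7.01%, 8.64% and 6.41% rose and 7.26%, 8.56% and 5.05% fell, and the counts and medians of the lists below are to be read against these shares and medians. IFNGR2, the chain of the interferon-gamma receptor that binds JAK2, rose in each condition, from 107, 117 and 93.2 CPM to 249, 227 and 197 CPM (log2 1.23, 0.96 and 1.08, adjusted p = 3.1e-10, 2.5e-08 and 5.5e-09). IL10RA, the ligand-binding chain of the interleukin-10 receptor, rose by 0.77, 0.82 and 0.56 (adjusted p = 2.4e-04, 1.4e-04 and 0.00715). IL20RB, a chain of the interleukin-20 receptors, fell in each condition (log2 -0.97, -1.22 and -1.39). IL6R, the interleukin-6 receptor, fell in WT from 573 to 383 CPM (log2 -0.58, adjusted p = 4.1e-05) and had values of 0.07 and -0.02 in SCR and KD. IL15RA was called in KD only of the 3 tests (log2 1.77, adjusted p = 0.00195), with 0.85 and 0.78 in WT and SCR.

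Of 30 ligands only 9 had enough reads to be tested, and 4, 2 and 2 of them rose after LPS in WT, SCR and KD while none fell. Their medians were 0.54, 0.64 and 0.63. EBI3, a subunit of interleukin-27 and interleukin-35, averaged 0.0781, 0.0914 and 0.0448 CPM before and 6.45, 6.33 and 6.6 CPM after LPS. Its unstimulated levels lay below the value of 3 reads, so no fold is given. EBI3 passed the filter on low counts through its stimulated libraries alone, so being called higher in each condition was nearly fixed in advance. It is among the ligands counted as higher. IL23A, a subunit of interleukin-23, rose by 1.62, 1.57 and 1.03 on the log2 scale (adjusted p = 2.8e-06, 6.5e-06 and 0.00117). IFNL1, an interferon-lambda, was called in WT (log2 1.35, adjusted p = 0.0156) and had -0.16 and -0.40 in SCR and KD. TSLP was not called (0.27, -1.27 and -1.16). IL6 and IL10 were among the 21 ligands with too few reads.

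Of 21 inhibitors 20 were tested, and 3, 5 and 6 rose in WT, SCR and KD while 1 fell in WT and none in the others. The medians were 0.04, 0.20 and 0.24. PTPN1, a phosphatase that acts on JAK2 and TYK2, rose in each condition (log2 0.93, 0.74 and 0.54, adjusted p = 1.2e-06, 3.4e-05 and 0.00139). SOCS3, which inhibits JAK kinases at gp130-type receptors, was at 2.05, 1.21 and 1.83 CPM before and 4.71, 6.81 and 6.95 CPM after, and was called in SCR and KD (log2 2.48 and 1.90, adjusted p = 8.7e-04 and 0.00711) and not in WT (1.22, adjusted p = 0.0732). PTPN2 was called in WT (0.58) and had 0.30 and 0.36 elsewhere, and CBL, a ubiquitin ligase, fell in WT (-0.55) and had 0.01 and -0.05 elsewhere. PIAS1 rose in SCR and KD (0.77 and 0.56, with -0.05 in WT) and SH2B3 in KD (0.61, with 0.20 and 0.31 in WT and SCR). Of 14 adaptors and partner factors 13 were tested, and JAK3 had too few reads. In WT, SCR and KD 2, 3 and 0 rose and 2, 3 and 3 fell, with medians of -0.04, 0.14 and 0.11. PIK3R1, a regulatory subunit of PI3 kinase, fell in each (-0.49, -0.38 and -0.44). NMI, which binds STAT proteins, rose in WT and SCR (0.49 and 0.70, with 0.41 in KD), and GRB2, an adaptor, did likewise (0.56 and 0.99, with 0.44 in KD). GAB2 fell in SCR and KD (-0.67 and -0.58, with -0.15 in WT), as did SH2B1 (-0.52 and -0.45, with -0.10 in WT). CRKL fell in WT (-0.40, with -0.22 and -0.18 in SCR and KD).

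The lists of target genes name genes known to respond to each factor, many of which NF-kB also induces. Of 28 targets of ISGF3, the STAT2 complex, 27 were tested and 14, 12 and 7 rose in WT, SCR and KD while 0, 1 and 1 fell, with medians of 0.29, 0.35 and 0.25. OAS3, an antiviral synthetase, rose in each (0.54, 0.70 and 0.47), and so did IFIT3 (0.80, 0.69 and 0.51), RSAD2 (0.29, 0.47 and 0.42) and the RNA sensor IFIH1 (0.34, 0.39 and 0.44). ISG20 rose in WT (0.85, with 0.24 and 0.25 in SCR and KD), and OASL and XAF1 rose in WT and SCR (0.93 and 0.83 for OASL with 0.30 in KD, and 0.59 and 1.08 for XAF1 with 0.58 in KD). IFI35 fell in SCR and KD (-0.75 and -0.42) and had 0.07 in WT. Of 20 STAT3 targets 19 were tested, and 9, 11 and 10 rose while 1 fell in each condition, with medians of 0.45, 0.76 and 0.79. The adhesion molecule ICAM1 had the lowest adjusted p of this list in each condition (log2 4.34, 2.88 and 2.71, adjusted p = 1.4e-11, 3.7e-09 and 1.0e-08). BCL3, an atypical IkB protein, rose by 2.86, 1.91 and 1.89, JUNB by 1.27, 0.97 and 0.79, and cyclin D1 (CCND1) by 1.67, 1.10 and 1.21.

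Of 15 STAT5 targets 13 were tested, and 4, 3 and 3 rose while none fell, with medians of 0.27, 0.12 and 0.36. The survival kinase PIM2 rose from 97.9, 80.9 and 72.9 CPM to 290, 204 and 154 CPM in WT, SCR and KD (log2 1.57, 1.33 and 1.08, adjusted p = 3.0e-11, 8.0e-10 and 2.3e-08). PIM1 rose by 1.70, 1.52 and 2.07, to stimulated means of 27.3, 36.8 and 40.4 CPM, and the repressor BCL6 by 0.93, 0.92 and 0.80, to 21.3, 20.1 and 20.7 CPM. The order of the 3 stimulated means thus differed between these targets. Of 14 STAT6 targets 9 were tested, and 0, 2 and 1 rose while none fell, with medians of -0.23, -0.01 and 0.18. IL4R rose in SCR (0.56, with 0.15 and 0.38 in WT and KD), and SOCS1 rose in SCR and KD (1.17 and 1.32, with 0.53 in WT). PPARG, F13A1, CISH and FCER2 were not called in any condition. Between KD and SCR, edgeR called none of the 126 tested genes of these 8 lists, without or with LPS, where it called 0.066% and 0% of all genes. DESeq2 called IFIT2, IFNGR2, OAS3 and USP18 of 119 with an adjusted p without LPS, and IFI35, IFNAR2, PIM2 and PTPN1 of 67 with LPS. Over all genes with an adjusted p, DESeq2 called 242 of 14413 without LPS and 142 of 4714 with LPS.

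**Figure D5:**
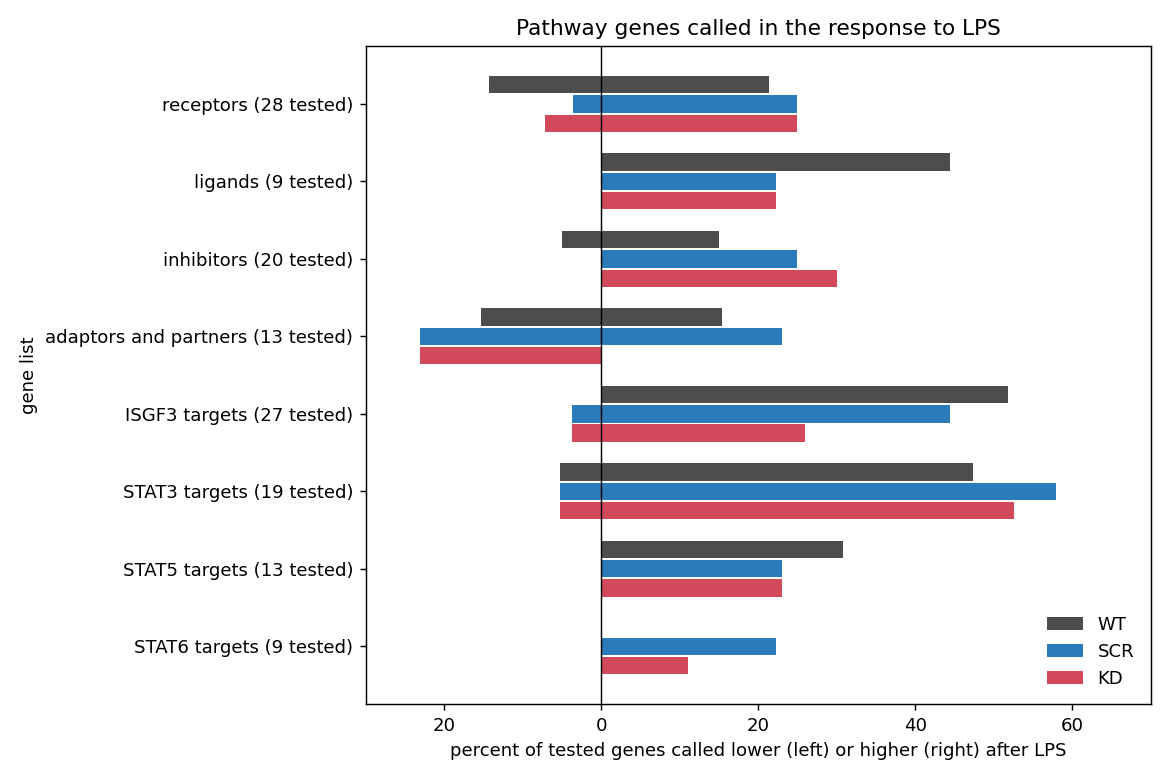
Share of the tested genes of each pathway list (y axis) that were called lower (left of 0) or higher (right of 0) after LPS, in percent (x axis), in WT, SCR and KD cells (grey, blue and red). The lists of ISGF3 and STAT3 targets have the longest bars to the right, with 14 of 27 and 9 of 19 genes higher in WT, where 7.01% of all tested genes were higher.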

How the data were processed

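RNA of 18 THP-1 samples was sequenced from transcript 3′ ends with the QuantSeq kit. The authors trimmed reads, aligned them to GRCh37 with HISAT and counted them per Ensembl gene with featureCounts over the last 500 bases of each gene, and deposited raw counts. Groups came from sample labels and symbols were matched to 55665 of 63677 Ensembl IDs. Counts in 3′ windows depend on the annotated transcript end, and floors of 3 counts cover counting error only. The 95% intervals are those of the edgeR fit and include the spread between replicates. CPM were scaled by TMM.

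edgeR 4.0.16 (R 4.3.3) was fitted to all 18 libraries with 1 mean per group, after a filter on low counts by group. Its quasi-likelihood test covered 11 planned comparisons and 1 added later, with Benjamini-Hochberg adjustment over 16678 genes and a threshold of 0.05. On simulated counts (response to LPS in WT, 16241 genes kept), 52% of changes of 1 on the log2 scale and 89% of changes of 2 were recovered. These were 98 and 100 changed genes, and 4 of 144 calls were false. Far fewer genes changed there than were called in WT, and their spread followed the trend with level. The shares recovered therefore do not carry over to these data. DESeq2 1.42.0 was an alternative, as were other scaling, no filter, GC offsets, the groups alone, the thresholds the study states (log2 fold change over 1, adjusted p 0.01), leave-one-out fits and a block on replicate number. Same-numbered deviations correlated over 0.1 in every pair only for SCR and WT with LPS (0.261, 0.163 and 0.253). Named genes are the 9 members, TRAFD1, the 3 genes of each list with the lowest adjusted p in each response to LPS, and the 3 genes most correlated with each member averaging at least 10 CPM. Members and lists were chosen with earlier results of these data known.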

Additional observations from a re-analysis of the deposited data

How the results depend on the processing

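The calls of STAT5A after LPS in WT, SCR and KD, and of STAT5A in KD against WT with LPS, held under all alternatives run on a gene value and whichever library was left out. In those settings its log2 fold change was 1.67 to 1.93 in WT, 1.36 to 1.57 in SCR, 1.19 to 1.33 in KD and -0.82 to -0.71 in KD against WT. The number of the 9 genes called went from 2 to 1 in the WT response with the thresholds the study states (1 to 2 when leaving out 1 library). It went from 2 to 3 there with no filter on low counts and with the groups alone. In the SCR response it went from 4 to 3 with GC offsets and with the thresholds the study states (3 to 4 when leaving out 1 library). In the KD response it went from 2 to 1 with no filter on low counts, with GC offsets, with the groups alone and with the thresholds the study states, each time through STAT4 (1 to 2 when leaving out 1 library). It went from 0 to 1 in SCR against WT without LPS with no filter and with the groups alone, and from 0 to 1 in KD against WT without LPS with no filter (0 to 1 when leaving out 1 library). In KD against WT with LPS it went from 2 to 0 with the thresholds the study states and to 3 with the groups alone (1 to 2 when leaving out 1 library). In the interaction of KD and SCR it went from 0 to 1 with no filter. The cause of these changes was not tested. 

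With the replicate block, KD against WT without LPS went from 0 to 2 called members, STAT2 (-0.28, adjusted p = 0.0494) and TYK2 (-0.45, adjusted p = 0.0499), and no other count of members changed. The block was fitted to all 18 libraries together, and the numbers are read as a pairing only for SCR and WT with LPS. There the block moved the calls over all genes from 19 to 135 and left 0 members, with STAT5A at -0.41 (adjusted p = 0.0958). Elsewhere the block moved the calls over all genes from 11 to 183 and 0 to 85 in KD against SCR without and with LPS, from 538 to 934 in SCR against WT without LPS and from 60 to 547 in the interaction of KD and WT, where the numbers are shared names only. DESeq2 called 242, 142, 196 and 275 genes in KD against SCR without and with LPS, SCR against WT with LPS and the interaction of KD and WT, and 929 in SCR against WT without LPS. With no filter the calls over all genes were 320 and 425 in KD against SCR without and with LPS and 593 in SCR against WT with LPS, and with GC offsets they were 50 and 15 in the former 2. With the groups alone they were 0 and 161 there, and 47 in SCR against WT with LPS. The thresholds the study states left 499, 548 and 344 calls in the WT, SCR and KD responses, 45 and 2 in SCR against WT, 180 and 105 in KD against WT and 0 in KD against SCR. In the interactions of KD and SCR, SCR and WT, and KD and WT, the calls were 132, 241 and 729 with no filter and 3, 85 and 275 by DESeq2. The 39 and 60 calls of the latter 2 ranged from 17 to 91 and from 21 to 1313 (without KD replicate 1) when 1 library was left out.

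Of 342 values of single genes under alternatives other than leaving out a library, 326 kept their direction and side of the threshold, 10 gained and 5 lost a call, and 1 reversed, STAT6 in SCR under GC offsets (0.073). A further 3, STAT4, STAT5A and STAT5B in KD against SCR with LPS by DESeq2, had no adjusted p. The reversals on leaving out 1 library gave ranges of -0.057 to 0.118 for STAT5B and -0.111 to 0.007 for JAK1 in the WT response, -0.066 to 0.005 for STAT6 and -0.271 to 0.098 for TYK2 in the SCR response and -0.058 to 0.706 for STAT3 in the KD response. They were -0.073 to 0.685 for STAT3 in KD against SCR without LPS, -0.215 to 0.022 for JAK2 and -0.201 to 0.051 for TYK2 with LPS, -0.718 to 0.046 for STAT3 in KD against WT without LPS and -0.629 to 0.132 for STAT3 in the interaction of KD and WT. With 3 replicates a group, an exact permutation test on 1 gene cannot go below 0.1, the value that groups without overlap reach. STAT4, at 8 to 61 reads a library, is the member that depth limits most.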
